A study of Artemisia annua with 12 samples.

Results

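The state of Artemisia annua leaves after 6 h under supplementary UV-B lamps was compared with that of leaves harvested at the start of the exposure. The comparison rests on 6 of the 12 libraries of the series, the 3 harvested at 6 h (UV6) and the 3 harvested at 0 h (UV0), and on 25841 of the 63226 listed genes, those with a normalised expression signal of 1 or more in at least 3 of the 12 libraries. The libraries follow from the labels, and the filter is a fixed rule that takes no account of the group. The filter does use the UV6 and UV0 values, so a gene can pass it only through the group where it is high.

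Artemisia annua, sweet wormwood, makes the antimalarial artemisinin in glandular trichomes, small secretory hairs on its leaf surface. Plants sense UV-B through the photoreceptor UVR8, which in Arabidopsis binds the ubiquitin ligase COP1 and so lets the transcription factor HY5 accumulate. HY5 and related factors are known to switch on genes of flavonoid synthesis, whose products absorb UV-B, and of photolyases, which repair UV-damaged DNA. The authors' table gives gene identifiers without names, and no annotation was used here, so the lists for these pathways and for artemisinin synthesis were not tested, and the labelled tissue, leaf, was not checked against marker genes. Genes are therefore described by their levels, the size of their change and their place in the transcript pool.

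Both groups were wild-type seedlings, 6 weeks old, of 'Huhao 1', a cultivar bred for high artemisinin content, grown with 16 h of light and 8 h of dark. UV6 leaves had stood for 6 h under narrowband UV-B at 1.5 µmol per square metre per second, added to the normal light, and UV0 leaves were taken at 0 h of it. Per the labels, the newest fully expanded leaf was taken, each library mixed leaves of 3 seedlings, and the 3 libraries of a group are separate pools. No labelled library comes from seedlings kept for 6 h without UV-B, so an effect of the lamps and one of daytime cannot be told apart. Nor can fewer cells of a type and less RNA per cell in whole leaves.

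The values are the authors' normalised signal, of which the table names no unit. The totals of the 6 libraries lay between 852480 and 868133, close to each other but not equal, and read depth is unknown. Pairs of UV6 libraries correlated at r = 0.975 to 0.976 and pairs of UV0 libraries at 0.979 to 0.981 across the tested genes on the log2(value + 1) scale, while UV6 and UV0 libraries correlated at 0.868 to 0.872. These are correlations across genes, which are not independent replicates. The spread was alike in both groups: the median SD of a gene over 3 libraries was 0.114 at UV6 and 0.112 at UV0 on the log2 scale. No library of either group stood apart.

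The gene with the largest rise in signal, CTI12_AA260020, was listed at 14445.67, 14690.66 and 14859.70 in the 3 UV6 libraries and at 201.43, 199.85 and 211.94 in the 3 UV0 libraries. Every UV6 library lay far above every UV0 library. UV6 and UV0 libraries did not overlap for 65.4% of tested genes, in either direction, and this gene was picked by its rise. Its mean was 14665 ± 208 at UV6 and 204.4 ± 6.57 at UV0 (SD, n = 3 each), a 71.7-fold ratio of means, with a log2 change of 6.16 ± 0.05 (SE; limma adjusted p = 1.37e-14). The gene held 1.72% of all signal at UV6 and 0.0236% at UV0, which placed it among the 10 highest genes at UV6. What this gene and the next 3 encode is not given by the table.

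CTI12_AA081750 had the second largest rise. Its signal was 6400.79, 6180.40 and 6251.02 in UV6 libraries and 1279.11, 1263.46 and 1287.87 in UV0 libraries, again without overlap. This gene too was picked by its rise, so the lack of overlap adds nothing. The means of 6277 ± 113 at UV6 and 1277 ± 12.4 at UV0 (SD, n = 3 each) differed 4.92-fold (log2 change 2.30 ± 0.042 SE, limma adjusted p = 4.04e-12).

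The largest fall in signal was that of CTI12_AA327350, the highest gene in all 12 libraries. It stood at 37924.75, 37444.83 and 36873.02 in UV6 libraries and at 64973.23, 66949.90 and 64963.83 in UV0 libraries. All UV6 values were below all UV0 values, which adds nothing for a gene picked by its fall. The UV6 mean was 57.0% of the UV0 mean (log2 change -0.81 ± 0.027 SE, limma adjusted p = 5.79e-10). It remained the highest gene at UV6, with 4.38% of all signal against 7.58% at UV0.

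CTI12_AA498370 had the second largest fall in signal and lost nearly all of it. It was listed at 8.01, 6.94 and 4.21 in UV6 libraries and at 17191.36, 17569.80 and 16855.63 in UV0 libraries. It held 0.000747% of all signal at UV6, against 1.99% at UV0 (log2 change -11.22 ± 0.24 SE, limma adjusted p = 7.81e-11).

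**Figure D1:**
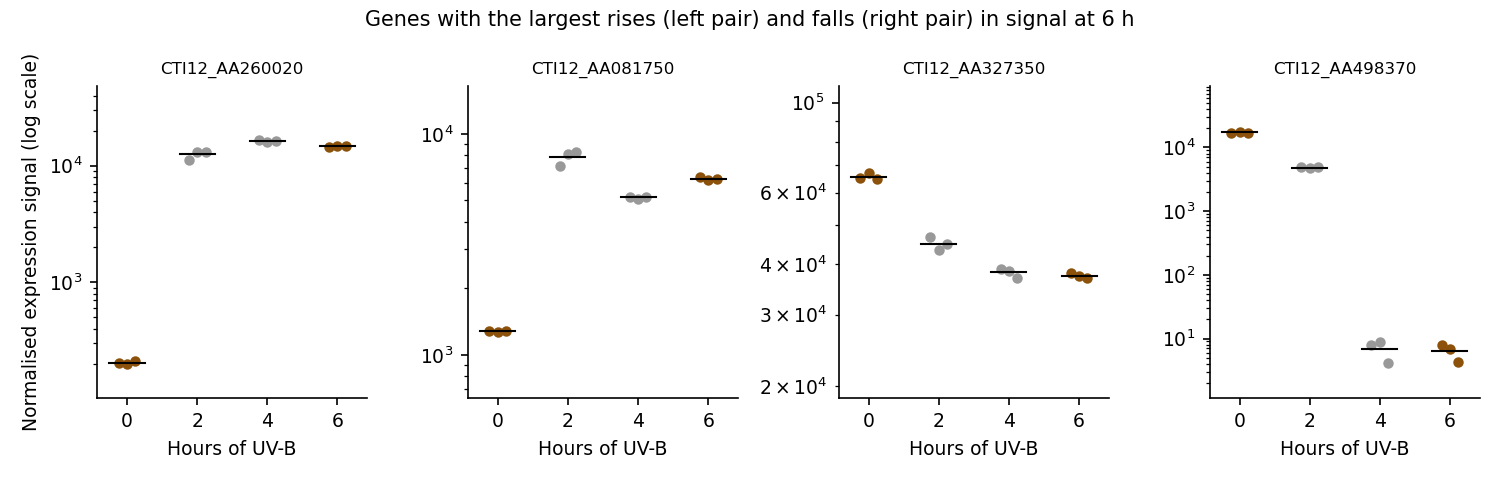
Normalised expression signal (log axis) of the 4 genes whose mean signal rose most (left pair) or fell most (right pair), UV6 against UV0, in every library against hours of UV-B. Points are libraries, with the compared harvests in brown and the 2 and 4 h harvests in grey, and lines are means of 3. CTI12_AA260020 and CTI12_AA081750 lie above their 0 h level at 2, 4 and 6 h, and CTI12_AA498370 lies below 10 at 4 and 6 h.

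The 4 genes had reached the 6 h state by different courses, as the plot of their signal by hours of UV-B shows. CTI12_AA260020 averaged 204.4 before the lamps, 12525 after 2 h, 16307 after 4 h and 14665 after 6 h (n = 3 each). CTI12_AA081750 averaged 1277, 7848, 5157 and 6277 at the same harvests, so that its highest mean was at 2 h. CTI12_AA327350 averaged 65629, 44877, 38110 and 37414, and CTI12_AA498370 averaged 17206, 4824, 6.94 and 6.39. Of the 4, CTI12_AA081750 alone passed the test between 6 and 4 h (log2 change UV6 minus UV4 0.28 ± 0.042 SE, limma adjusted p = 0.00159). For the others the log2 difference between 6 and 4 h was -0.15 (limma adjusted p = 0.0875) for CTI12_AA260020, -0.03 (limma adjusted p = 0.632) for CTI12_AA327350 and -0.09 (limma adjusted p = 0.888) for CTI12_AA498370.

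Only genes that passed the test (59.8% of those tested) were ranked by rise or fall of signal, so their passing adds nothing. The 8 genes next in rise of signal, which are given here without identifiers, averaged 2308 to 6684 at UV6, against 65.5 to 3697 at UV0. Their ratios of means ran between 1.81 and 49.2. The steepest of them stood at 3221 ± 72.8 at UV6 and 65.5 ± 0.86 at UV0 (SD, n = 3 each; log2 change 5.60 ± 0.033 SE, limma adjusted p = 4.15e-16). The 8 genes next in fall averaged 1058 to 28923 at UV6, against 4671 to 41842 at UV0. Their UV6 means were between 0.19 and 0.691 of their UV0 means, so these 8 losses of signal, unlike that of CTI12_AA498370, left abundant transcripts in place. One of them, at 1854 ± 14.7 at UV6 and 9771 ± 151 at UV0 (SD, n = 3 each), fell by 2.40 on the log2 scale (limma adjusted p = 1.06e-14).

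Across the whole table, 15441 of the 25841 tested genes (59.8%) passed the test at 6 h (limma, Benjamini-Hochberg adjusted p under 0.05). Of these, 10660 (41.3% of those tested) were higher and 4781 (18.5%) lower at UV6 than at UV0. The 3 UV6 values lay wholly above or wholly below the 3 UV0 values for 16911 genes (65.4%), 11532 above (44.6%) and 5379 below (20.8%). The middle 50% of genes had log2 changes between -0.18 and 0.58, and the outer 5% on each side lay below -1.02 and above 1.66. The distribution was wider on the upper side: the 1st percentile was -2.12 and the 99th was 3.14.

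The balance of directions depended on the scaling of the libraries. Over the tested genes the median log2 change at UV6 was 0.20, and after median-ratio scaling of the libraries, which brings this median to 0.01, the higher and lower genes numbered 7441 and 7284, so that 50.5% of calls were higher in place of 69%. All 4 named genes kept their direction and their call under this scaling. A gene with a log2 change of 0 on the deposited scale lay 0.20 below the median gene.

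Genes higher at UV6 by at least 2-fold on the log2(value + 1) scale numbered 3009 (11.6% of those tested) and those lower by as much 1254 (4.85%). Median-ratio scaling brought these numbers closer together, to 2368 higher and 1789 lower. At 4-fold the numbers were 857 higher and 308 lower, at 16-fold 110 and 31, and at 64-fold 10 and 6. The pseudocount lowers these counts for weakly expressed genes. With one of 0.1 the 2-fold counts were 4313 higher and 1711 lower, and with one of 5 they were 1237 and 469. Without any pseudocount, among the 9485 genes with a mean signal of 10 or more over the 12 libraries, the ratio of means was 2 or more for 1243 called genes and 0.5 or less for 393. Among the 89 genes with a mean of 1000 or more, 16 called genes had a ratio of 2 or more and 7 a ratio of 0.5 or less, and the median ratio was 0.775, against 1.15 for the 9485 genes.

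Most calls were of small changes on the log2(value + 1) scale, as 4263 of the 15441 called genes reached 2-fold. A log2 change between 0.25 and 0.5 in size was called for 4482 of the 6555 genes that had one (68.4%), and one between 0.5 and 1 for 5698 of 6434 (88.6%). Below 0.25 in size, 998 of 8349 genes (12%) were called. On the same scale, the 95% interval of the change lay wholly above a 2-fold rise for 1906 genes and wholly below a 2-fold fall for 757. For 17458 genes (67.6%) it lay within a 2-fold change in either direction, and for 7677 (29.7%) within a 1.41-fold change. Of these 7677, 5520 were not called. Of the 10400 genes not called, 8675 had intervals within a 2-fold change. The pseudocount makes changes of weak genes look smaller, and the mean signal of the genes not called had a median of 4.22. For weak genes, an interval within 2-fold on this scale does not show that the signal itself changed less than 2-fold.

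**Figure D2:**
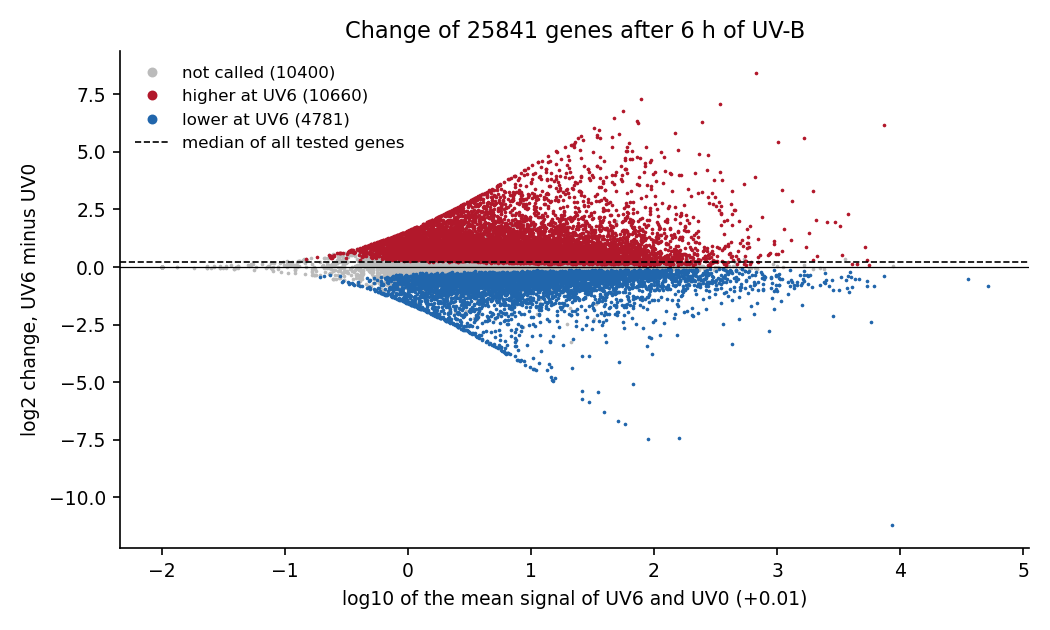
Log2 change of each tested gene, UV6 minus UV0, on the log2(value + 1) scale, against the log10 mean signal of both groups. Red points are the 10660 genes called higher, blue points the 4781 called lower and grey points the 10400 not called; the dashed line is the median change of 0.20, and the lowest point, at -11.22, is CTI12_AA498370.

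The transcript pool was more evenly spread over genes at UV6 than at UV0. In the 3 UV6 libraries the 345, 365 and 359 highest genes were needed to hold 50% of the signal, against 178, 175 and 174 in the UV0 libraries. The groups did not overlap, with means of 356 ± 10.3 at UV6 and 176 ± 2.08 at UV0 (SD, n = 3 each; two-sided exact permutation p = 0.1, and 3 libraries against 3 can give none smaller). The 100 highest genes of a library held 36.1% ± 0.32 of the signal at UV6 and 44.0% ± 0.113 at UV0 (exact permutation test, two-sided p = 0.1). Genes at a signal of 5 or more numbered 14557 ± 80.5 at UV6 and 13234 ± 59.1 at UV0 (exact permutation test, two-sided p = 0.1). A total of 5 such library measures, namely these 3, the share of the 10 highest genes and the number of genes at 1 or more, were compared, and the Benjamini-Hochberg adjusted p of each exact permutation test was 0.1. Counts of genes above a fixed signal depend on the scaling of the libraries. For genes at 1 or more, median-ratio scaling brought the difference from 1295 to 603, and the count at 5 was not recomputed. To hold 50% of the signal, the 2 h libraries needed 326, 301 and 299 genes and the 4 h libraries 357, 371 and 380. A pool more even than that of UV0 was thus not particular to 6 h.

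The size of the difference was also measured without logarithms, as the part of the summed signal that stands on different genes in a pair of libraries. It was 24.6% to 25.2% in the 9 pairs of a UV6 and a UV0 library. Within UV6 it was 3.11% to 3.42% and within UV0 2.69% to 3.04%. The mean over pairs between UV6 and UV0 was 8.09 times the mean over pairs within them. Libraries of the earlier harvests stood about as far from UV0, at 24.2% to 24.6% after 2 h and 23.8% to 24.5% after 4 h. A difference of this size from UV0 was thus not particular to 6 h.

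**Figure D3:**
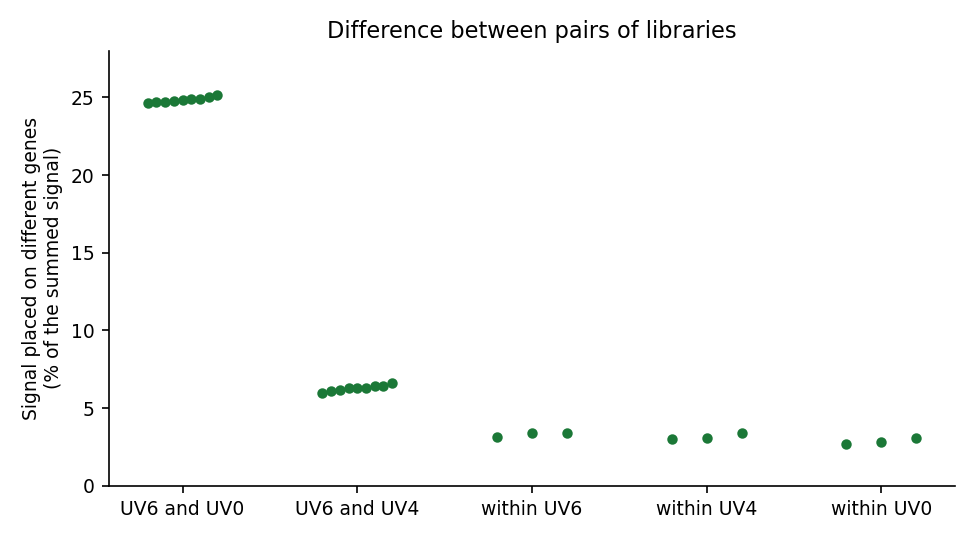
Part of the summed signal that stands on different genes, in percent, for pairs of UV6, UV4 and UV0 libraries. Points are pairs, 9 between harvests and 3 within a harvest; UV6 and UV0 libraries differ by 24.6% to 25.2%, UV6 and UV4 libraries by 5.99% to 6.58%, and libraries within UV6, UV4 or UV0 by 2.69% to 3.42%.

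The lost signal came from few genes and the gained signal was spread over many. Between the mean UV6 and the mean UV0 library, 24.5% of the signal moved, lost by 14405 of the listed genes and gained by 24153. The 26 genes with the largest losses made up 50% of the loss, whereas it took 163 genes to make up 50% of the gain. The 10 largest losses amounted to 9.55 percentage points of all signal and the 10 largest gains to 5.10. Genes called lower by 2-fold or more carried 32.3% of the loss, so most of it came from smaller relative falls of abundant genes, whereas genes called higher by 2-fold or more carried 63.1% of the gain. These parts rest on shares of a library total, in which a fall of abundant genes lifts the share of all others.

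**Figure D4:**
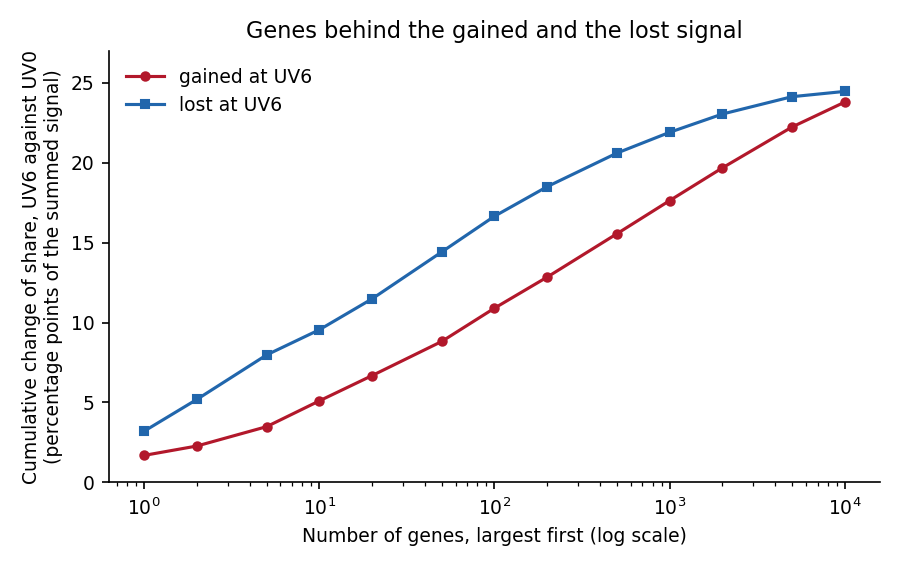
Cumulative gain (red circles) and loss (blue squares) of share of the summed signal, in percentage points, UV6 against UV0, over genes ordered by the size of their gain or loss (log axis). The 10 largest losses reach 9.55 points and the 10 largest gains 5.10, and both curves approach 24.5 points.

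The 3009 genes higher by 2-fold or more held 19.6%, 19.5% and 19.6% of the signal in the UV6 libraries and 4.12%, 4.13% and 4.12% in the UV0 libraries. The 1254 genes lower by as much held 2.67%, 2.68% and 2.64% at UV6 and 10.6%, 10.6% and 10.5% at UV0. The genes of both sets were picked by this same difference, and their shares describe its size. The 10400 genes not called held 17.6% to 17.7% of the signal at UV6 and 16.8% to 17.2% at UV0.

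The membership of the most abundant transcripts differed as well. Of the 10 genes highest in mean at UV6, 4 were among the 10 highest at UV0. The 6 that entered averaged between 5034 and 14665 at UV6, against 204.4 to 5429 at UV0, and the lowest of them had ranked 467 at UV0. The 6 that left averaged between 6.39 and 4424 at UV6, against 5495 to 17206 at UV0. Of the 100 highest genes, 75 were shared by both groups, and of the 1000 highest 774 were. One gene that entered the 100 highest had a mean of 3.07 at UV0.

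By abundance, the direction of the calls differed from the share in the whole table, where 41.3% were higher and 18.5% lower. Of the 100 genes of highest mean over the 12 libraries, 32 were higher, 59 lower and 9 not called, with a median log2 change of -0.36. Calls of 2-fold or more among these 100 ran the other way, with 17 higher and 7 lower. Of the next 900, 391 (43.4%) were higher and 353 (39.2%) lower, with a median of 0.03. Of the next 4000, 1967 (49.2%) were higher and 1012 (25.3%) lower, and of the remaining 20841, 8270 (39.7%) and 3357 (16.1%), with medians of 0.18 and 0.21. Replicates of weakly expressed genes spread more: the median coefficient of variation was 1.81% at UV6 and 1.45% at UV0 for the 100 highest genes and 12.3% at UV6 and 12.9% at UV0 for the remaining ones. Median-ratio scaling turned the balance in the middle classes, to 282 higher and 495 lower among the next 900 and 1351 higher and 1599 lower among the next 4000. It gave 28 higher and 67 lower among the 100 highest, and 5780 higher and 5123 lower among the remaining.

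Some transcripts were present in one group and near 0 in the other. Present means a signal of 5 or more in all 3 libraries of a group and near 0 means 0.1 or less in all 3. Presence in 3 libraries by itself meets the filter on low values, so all such genes are among the 25841 tested. At UV6, 71 of the 25841 tested genes were present that had been near 0 at UV0, with UV6 means between 5.34 and 157.5 and a median of 9.20. Of these, 51 were listed at 0 in every UV0 library. The highest of them was listed at 176.96, 162.72 and 132.93 in UV6 libraries and at 0 in the 3 UV0 libraries. With a minimum of 20 in place of 5, 11 genes met the rule.

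The reverse was found for 46 of the 25841 tested genes, near 0 at UV6 and present at UV0, with UV0 means between 5.43 and 177.7 and a median of 12.6. Of these, 34 were listed at 0 in every UV6 library. The highest of them was listed at 0 in the 3 UV6 libraries and at 182.61, 178.68 and 171.93 in UV0 libraries. With a minimum of 20 the number was 10. Read depth is unknown, so a signal of 0 does not show that a transcript was absent.

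At the harvests between, 34 of the 71 genes that were on at UV6 met the minimum of 5 in all libraries at 2 h and 50 at 4 h, while 13 were still near 0 at 2 h and 1 at 4 h. Their median signal was 5.40 at 2 h and 9.02 at 4 h. Of the 46 that were off at UV6, 14 were near 0 at 2 h and 35 at 4 h, and 19 were still present at 2 h and 0 at 4 h. Their signal had a median of 5.23 at 2 h and of 0 at 4 h.

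The genes changed 2-fold or more at UV6 were followed through the earlier harvests. Those higher at UV6 had a median signal of 1.64 before the lamps, then 5.62 after 2 h, 8.31 after 4 h and 8.66 after 6 h. Those lower at UV6 had medians of 8.04, 3.89, 1.74 and 1.52 at the same harvests. Over all tested genes the medians were 5.20, 5.94, 6.38 and 6.36. Changes against 0 h share the UV0 libraries, so they are set side by side without a test: the genes higher at UV6 had median log2 changes of 0.98 after 2 h, 1.48 after 4 h and 1.51 after 6 h, and the genes lower at UV6 had -0.96, -1.47 and -1.48.

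The comparison of 4 h with 2 h uses neither UV6 nor UV0 libraries, though the estimate of the spread is common. In it, 8031 of the tested genes (31.1%) were higher at 4 h and 5034 (19.5%) lower. Of the 3009 genes higher by 2-fold or more at UV6, 1801 (59.9%) were higher at 4 h than at 2 h, 346 lower and 862 not called, with a median log2 change of 0.51 against 0.09 over all tested genes. These 1801 made up 22.4% of all rises in that interval. Of the 1254 genes lower by 2-fold or more at UV6, 645 (51.4%) were lower at 4 h than at 2 h, 111 higher and 498 not called, with a median log2 change of -0.44. These 645 were 12.8% of all genes lower in that interval.

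**Figure D5:**
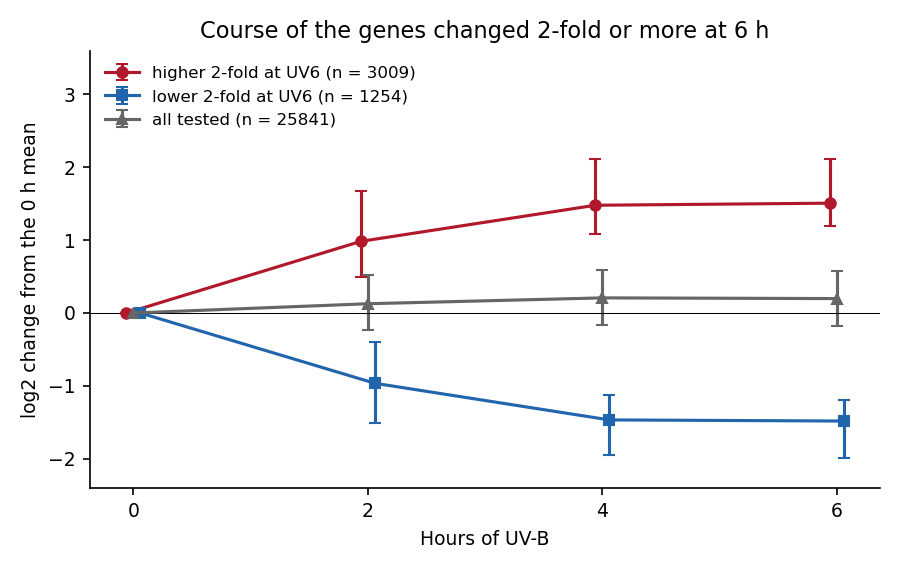
Median log2 change from the mean of the 0 h libraries against hours of UV-B, for the 3009 genes higher and the 1254 genes lower by 2-fold or more at UV6 and for all 25841 tested genes. Points are medians over genes and bars run from the 25th to the 75th percentile; the medians of both sets differ by at most 0.03 between 4 and 6 h.

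The 6 h state was closest to that at 4 h, and the difference between these harvests was tested directly. UV6 and UV4 libraries placed 5.99% to 6.58% of their signal on different genes, more than the 3.02% to 3.42% among libraries of either harvest. Of the tested genes, 2561 (9.91%) differed, 1148 of them higher (4.44%) and 1413 lower (5.47%) at UV6. Changes of 2-fold or more were called for 107 higher (0.414%) and 51 lower genes (0.197%). The lower genes numbered 892 without replicate 2 of UV4. The outer 5% of genes on each side lay below -0.44 and above 0.47 on the log2 scale.

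The largest rise in signal between 4 and 6 h was that of CTI12_AA081750, with 6277 ± 113 at UV6 and 5157 ± 56.5 at UV4 (SD, n = 3 each). The largest fall was that of a gene at 529 ± 14.0 at UV6 and 1230 ± 16.9 at UV4 (SD, n = 3 each; log2 change -1.22, limma adjusted p = 3.46e-08), whose mean was 16.9 at 0 h and 527 at 2 h. This gene was thus still far above its 0 h level at 6 h, after a highest mean at 4 h.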

How the data were processed

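The authors deposited a single table of normalised expression signal, with 1 column per library, rounded to 2 decimals, and a header that names no unit. The submitters' processing notes list HISAT2 (version 2.1.0), Salmon and DESeq, with no role for each; no source used here gives the genome build. Library totals are similar, as in values scaled to a total, but how the signal was scaled is not stated; where it is so scaled, a fall of abundant transcripts lifts the others. Columns that belong to no sample of the series numbered 0.

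A pseudocount of 1 was added before taking log2, which makes changes of weak genes look smaller. Genes at 1 or more in at least 3 of the 12 libraries were tested; 37385 were not, of which 21712 were listed at 0 throughout. The limma model (limma 3.58.1, R 4.3.3; trend and robust estimation) was fitted to the 4 groups of all 12 libraries without a replicate term, and a call needed a Benjamini-Hochberg adjusted p below 0.05. Adjusted p-values and 95% intervals come from this model. They set a difference of group means against the spread between libraries, each a pool of 3 seedlings. That spread was estimated over the 4 groups, with information shared among genes. Library measures were compared with exact two-sided permutation tests (scipy 1.17.1).

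Identifiers are printed by rule: the pair with the largest rise and the pair with the largest fall in mean signal, UV6 minus UV0, among called genes. Other genes singled out were chosen after their values were seen. The members, lists and tests were chosen with earlier results of these data known. The alternatives tried stand with their values in the closing section.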

Additional observations from a re-analysis of the deposited data

Results flagged for a closer look

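The state at 6 h differed from that at 4 h by the test of the difference itself for 2561 genes (limma, adjusted p under 0.05), 9.91% of those tested. Among the named genes the difference passed for CTI12_AA081750, whose log2 change between 4 and 6 h was 0.28 (limma adjusted p = 0.00159, every UV6 library above every UV4 library).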

How the results depend on the processing

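Of 365 recomputed values, 342 kept their direction and stayed close to the reported one (counts within 1.5 times, other values within 1 SD, tested genes on their side of the threshold), and none changed its own sign. Median-ratio scaling gave 7441 higher and 7284 lower genes at UV6 (49 genes called in the opposite direction), 2368 and 1789 at 2-fold or more, a median log2 change of 0.0070, a difference of 603 in place of 1295 genes at 1 or more. Further alternatives were chosen after seeing the data. Among the next 900 by abundance, this scaling turned the balance of higher and lower genes to 282 and 495. It gave 1351 and 1599 among the next 4000, with 5780 and 5123 among the remaining. A value of 27.8% of signal moved was also computed under this scaling. It is not the same measure, because shares of a library's own total do not change when the whole library is scaled. A pseudocount of 5 gave a median of 0.11 and 1237 higher and 469 lower genes at 2-fold or more against UV0, with 39 and 13 against UV4. One of 0.1 gave a median of 0.24 and 4313 higher and 1711 lower genes at 2-fold or more against UV0, with 168 and 101 against UV4. Without the filter the median was 0.047 against UV0 and 0 against UV4. A minimum fold of 2 left 4263 calls against UV0 and 158 against UV4. The 100 highest genes gave a difference in share of -7.99 percentage points, and the 10 highest -5.86. Leaving out the 10 highest genes gave 24.2% of signal moved, in place of 24.8%. A minimum of 20 for presence gave 11 genes on and 10 off at UV6. Leaving out 1 library gave 892 to 1077 lower genes against UV4, and 14252 to 15669 calls against UV0, a range that includes the fit without replicate 1 of UV2, added after seeing the data because that library spread more than others. Replicate numbers are shared by the groups' labels, but same-numbered UV6 and UV0 libraries did not deviate together (r = -0.025 to 0.0034), nor did each correlate best with its own number; the fit with a replicate block gave 15179 calls. The smallest listed value differed from gene to gene (4826 distinct values), so no worth of 1 read common to all genes was at hand and no count model was run; unknown depth limits what a signal of 0 shows.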
